A study of Mus musculus with 12 samples.

Results

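The HMGB genes Hmgb1, Hmgb2 and Hmgb3 and the receptor gene Ager were measured on arrays of RAW264.7, a macrophage line from mouse. Every non-control probe that the array files name after one of these 4 genes was taken, which gave 4 of the 36163 gene and feature names and 10 of the 55681 probes: 7 for Hmgb1 and 1 each for Hmgb2, Hmgb3 and Ager. The study laid an siRNA against the long noncoding RNA lincRNA-Tnfaip3 over stimulation with LPS, a component of bacterial outer membranes recognised through the receptor TLR4. The 4 groups, with 3 arrays each, were LincTnfaip3siRNA + LPS, LincTnfaip3siRNA, CtrlsiRNA + LPS and CtrlsiRNA, the control being a non-specific siRNA. All cells received an siRNA for 24 h and then spent 4 h in culture, either with LPS from E. coli (1 µg/ml) or without it. Nothing in the labels tells whether the arrays of a group stem from separate cultures, so the spread behind each p-value is that between these samples only and may be technical.

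HMGB proteins carry HMG boxes, DNA-binding domains that bend DNA and help assemble chromatin and transcription complexes. HMGB1 has a second life outside the nucleus: macrophages exposed to LPS can move it to the cytoplasm and release it, and the extracellular protein acts as an alarm signal through RAGE, the product of Ager, and through TLR4. HMGB2 is the close relative most often linked to dividing cells, and HMGB3 is expressed mostly in embryos and haematopoietic cells. The mRNA levels given here do not report where the protein is or whether it is released.

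Of the 10 probes, 9 passed the filter on dim probes, which asked for 1 group or more with a signal well above background on each of its 3 arrays, and Ager's probe did not. Hmgb1, Hmgb2 and Hmgb3 were well above background on all 12 arrays. Each was tested in 5 comparisons, and no HMGB gene passed an adjusted p of 0.05 in any of them (limma, Benjamini-Hochberg over 23888 features). The change with the lowest p-value was that of Hmgb3 with LPS in control-siRNA cells, at -0.31 ± 0.09 log2 (SE) with an adjusted p of 0.0759 by limma.

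The LPS response itself was present on these arrays. Il6, a cytokine gene used here as a check, rose with LPS by 6.02 log2 in lincRNA-siRNA cells and by 6.85 log2 in control-siRNA cells (limma adjusted p = 2.60e-05 and 9.78e-06). None of the probes carries the name of the targeted noncoding RNA, so its knockdown was not checked here. All 8 macrophage markers examined were well above background on all 12 arrays, against 6 of 18 markers of other cell types. Those 6 were Cd3e, Cd4, Cd79a, Pecam1, Kdr and Pdpn. Of the rest, 8 were well above background on some arrays, and Ms4a1, Epcam, Cdh1 and Pdgfra on 0. Between 27181 and 36367 probes were well above background on an array, with the fewest on arrays 1 and 2 of CtrlsiRNA. Those 2 arrays were alone on slide 1, arrays 2 and 3 of LincTnfaip3siRNA + LPS were alone on slide 3, and slide 2 held the other 8. Levels are log2 signals relative to the array's 75th percentile, so fewer cells and less RNA per cell cannot be told apart from each other. The 3 arrays per group limit the precision of every value, and levels of different probes are not compared.

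The probe letters matter for Hmgb1, because the mouse genome holds many processed copies of this gene. The 7 Hmgb1 probes lie on the minus strand of chromosome 5, between positions 149858938 and 149861454 of mm9, the build named in the array files. The files give where each begins in its listed transcript, at base 471, 633, 754, 1059, 1062, 1432 or 2115, and these numbers name the probes below. For probe 754 no RefSeq transcript is listed, and its 60 letters are placed over 59 bases of mm9. Its start may be counted in a transcript other than that of the rest. Exon and UTR boundaries on mm9 were not used here. Probe 633, at chr5:149860420-149860479, had the highest mean signal and stands for the gene in the comparisons. Its accession list also holds Gm5176, a transcribed pseudogene in the RefSeq table of assembly GRCm38.p6, and that of probe 471, at chr5:149861395-149861454, holds Hmgb1-rs17, another transcribed pseudogene there. The list of probe 1062 also holds a transcript that the array names Hmg1l1. Which of the listed transcripts these probes read was not tested. The levels and changes given for Hmgb1 from probe 633 may therefore not be those of Hmgb1 alone.

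The letters of probe 471 are given with those of 3 other array probes that matched it over 30 bases or more at an identity of at least 85%, and capitals mark the letters that differ from it:
Hmgb1 probe 471: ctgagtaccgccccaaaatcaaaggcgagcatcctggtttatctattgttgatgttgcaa
Probe A_55_P2182939, chr14:54943945-54944004, minus strand: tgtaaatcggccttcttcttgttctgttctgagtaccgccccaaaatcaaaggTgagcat
Probe for Hmg1l1, chr7:49276522-49276581, plus strand: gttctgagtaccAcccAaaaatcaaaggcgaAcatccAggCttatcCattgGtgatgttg
Probe for Gm5396, chrX:149547675-149547734, minus strand: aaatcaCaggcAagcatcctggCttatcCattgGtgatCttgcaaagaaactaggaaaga
The first of these matched probe 471 at 31 of 32 overlapping bases, the probe for Hmg1l1 at 50 of 57 and that for Gm5396, annotated as a pseudogene, at 39 of 45. Probe 633 is given in the same way, with 2 of its 6 relatives:
Hmgb1 probe 633: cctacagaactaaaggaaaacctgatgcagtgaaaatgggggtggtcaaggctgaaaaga
Probe A_55_P2131481, chr12:47579762-47579821, minus strand: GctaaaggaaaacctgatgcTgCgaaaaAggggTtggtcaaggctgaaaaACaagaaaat
Probe A_55_P2113768, chr3:124291549-124291608, minus strand: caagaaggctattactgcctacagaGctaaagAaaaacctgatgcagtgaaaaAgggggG
These 2 matched it at 45 of 52 and 39 of 43 overlapping bases.

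In all, 17 probes not named Hmgb1 came this close to 1 of 4 Hmgb1 probes (471, 633, 1059 and 1062), and all 17 were well above background on all 12 arrays. Probe 471 had 8 such relatives on 6 chromosomes, and probe 633 had 6, of which 5 were placed, each on a chromosome of its own. With positions counted from 1 at the 5′ end of the Hmgb1 probe and its base given first, the relatives of probe 633 all differed from it at A9G and T37A, 6 of the 6 that cover each position. Relatives of probe 471 shared T38C in 7 of 7 and T49G in 5 of 5. At these positions the probe named Hmgb1 is thus the one that differs from all relatives covering it. Which base the Hmgb1 transcript holds there was not checked. Probes 1059 and 1062 lie 3 bases apart on mm9, at chr5:149859994-149860053 and chr5:149859991-149860050, and yet differ from each other at 2 of the 57 bases they share. Probes 754, 1432 and 2115 had no such relative. Nor did the probes for Hmgb3, at chrX:68813666-68813725 on the plus strand, and for Ager, at chr17:34735715-34735876 on the plus strand. Hmgb2's probe, at chr8:59992929-59992988 on the plus strand, had 1, on chromosome 10, that matched it at 51 of 55 bases.

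Hmgb1, the member that is both a chromatin protein and an alarm signal, showed broad overlap between the 4 groups. Probe 633 read 4.89, 5.23 and 4.81 in LincTnfaip3siRNA + LPS, 4.37, 4.89 and 5.29 in LincTnfaip3siRNA, 4.98, 5.03 and 5.17 in CtrlsiRNA + LPS and 5.17, 5.31 and 5.06 in CtrlsiRNA. The lowest and the second highest of the 12 values were both arrays of LincTnfaip3siRNA, so this group spanned nearly the whole range. Group means were 4.98 ± 0.23, 4.85 ± 0.46, 5.06 ± 0.10 and 5.18 ± 0.13 in that order of groups (SD, n = 3 each). From high to low the order was CtrlsiRNA, CtrlsiRNA + LPS, LincTnfaip3siRNA + LPS and LincTnfaip3siRNA, and each neighbouring pair overlapped.

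Hmgb2, the relative linked to cell division, varied least in CtrlsiRNA + LPS. Its probe read 6.80, 7.05 and 6.92 in LincTnfaip3siRNA + LPS, 6.69, 6.79 and 7.02 in LincTnfaip3siRNA, 6.96, 6.92 and 6.92 in CtrlsiRNA + LPS and 7.11, 7.07 and 6.94 in CtrlsiRNA. Means were 6.92 ± 0.12, 6.83 ± 0.17, 6.94 ± 0.02 and 7.04 ± 0.09 in those groups (SD, n = 3 each). The order from high to low was CtrlsiRNA, CtrlsiRNA + LPS, LincTnfaip3siRNA + LPS and LincTnfaip3siRNA, as for Hmgb1, and neighbours in it overlapped.

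Hmgb3 was the member whose groups lay furthest apart relative to their spread. Its probe read 3.59, 3.64 and 3.46 in LincTnfaip3siRNA + LPS, 3.59, 3.60 and 3.72 in LincTnfaip3siRNA, 3.50, 3.48 and 3.43 in CtrlsiRNA + LPS and 3.75, 3.74 and 3.84 in CtrlsiRNA. All 3 arrays of CtrlsiRNA lay above the other 9, although the gap to the highest LincTnfaip3siRNA array was narrow, 3.74 against 3.72 as the nearest values. Means were 3.56 ± 0.09, 3.63 ± 0.07, 3.47 ± 0.04 and 3.78 ± 0.06 in those groups (SD, n = 3 each). The order from high to low was CtrlsiRNA, LincTnfaip3siRNA, LincTnfaip3siRNA + LPS and CtrlsiRNA + LPS, and only the first pair of neighbours did not overlap.

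Ager encodes RAGE, the receptor for HMGB1 and for S100 proteins. The Ager probe is printed because its placement is unusual: its 60 letters are spread over 162 bases of mm9, so they are not 1 unbroken stretch of genome.
Ager probe A_52_P509965: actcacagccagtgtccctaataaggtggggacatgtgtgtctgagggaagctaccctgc
It was well above background on 5 of 12 arrays: array 2 of LincTnfaip3siRNA + LPS, arrays 2 and 3 of LincTnfaip3siRNA, array 2 of CtrlsiRNA + LPS and array 3 of CtrlsiRNA. Its log2 levels were -5.37, -3.88 and -6.09 in LincTnfaip3siRNA + LPS, -5.58, -4.80 and -4.52 in LincTnfaip3siRNA, -5.33, -4.59 and -5.96 in CtrlsiRNA + LPS and -4.59, -5.63 and -5.21 in CtrlsiRNA. Every group held arrays where the probe was not well above background, and the groups overlapped throughout. The processed signal ran from 4.91 to 21.1. With the filter lifted, the 5 fitted changes of Ager lay between -0.15 and 0.18 log2 with a standard error of 0.57 for each comparison of 2 groups, and none is read as a change.

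**Figure D1:**
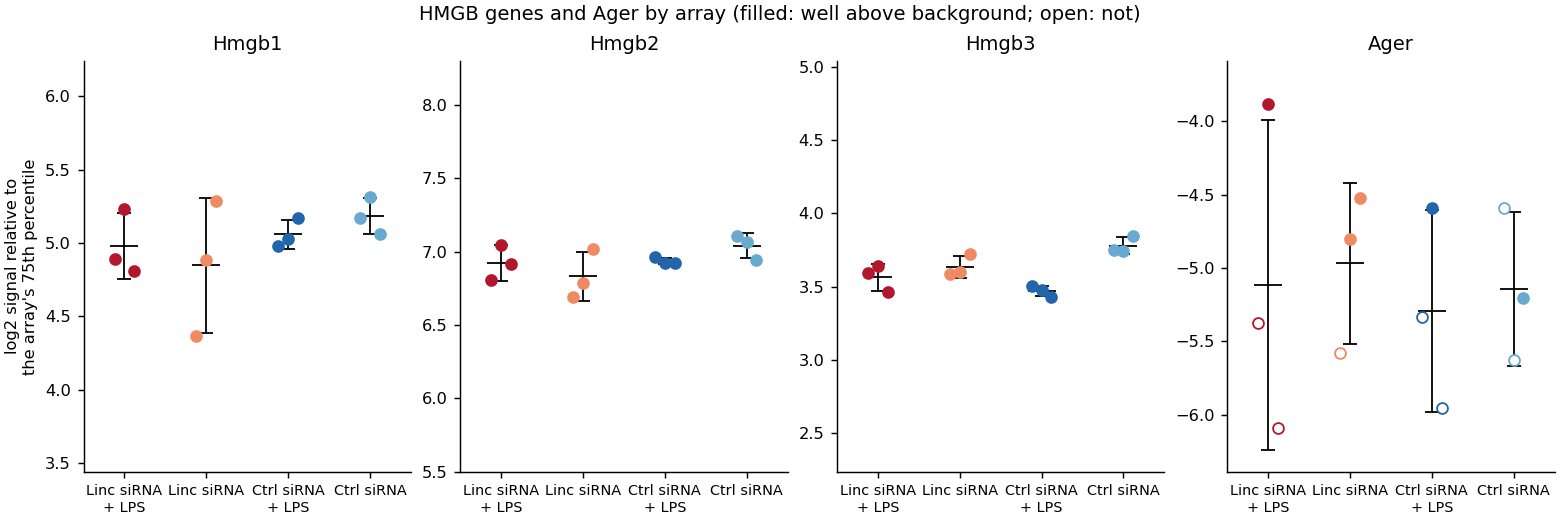
Log2 signal relative to the array's 75th percentile for Hmgb1 (probe 633), Hmgb2, Hmgb3 and Ager on each of the 12 arrays, with group means and standard deviations (bars) over 3 arrays; open points are arrays where the probe was not well above background, and each panel has its own axis of equal span. Hmgb3 lies above 3.73 in CtrlsiRNA and below that on the other 9 arrays, and Ager is filled on 5 arrays.

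In the plot of levels by array, the group means of Hmgb1 and Hmgb2 lie within the range of the 3 LincTnfaip3siRNA arrays, or, for Hmgb2 in CtrlsiRNA, just above it, while those of Hmgb3 spread beyond it. The first array of LincTnfaip3siRNA was low for Hmgb1 and Hmgb2 together.

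The first question was whether LPS changed HMGB expression. In control-siRNA cells Hmgb1 differed by -0.13 ± 0.21 log2 with LPS (SE; 95% interval -0.60 to 0.35, limma adjusted p = 0.744), Hmgb2 by -0.10 ± 0.11 (-0.35 to 0.14, adjusted p = 0.583) and Hmgb3 by -0.31 ± 0.09 (-0.51 to -0.11, adjusted p = 0.0759). None of the 3 genes was called, where 5.14% of all features were. Hmgb3 is -19.4% on the linear scale, and its unadjusted p was 0.00561 in limma, rank 1767 among the 23888 features, of which 24.2% had an unadjusted p under 0.05. Its 3 arrays with LPS all lay below the 3 without, which was so in this direction for 15.3% of features (30.2% in either direction). The median over all features was 0.06 log2.

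Arrays 1 and 2 of CtrlsiRNA were on a slide of their own, so this comparison was also made with the slide as a block and on slide 2 alone. Hmgb3 then stood at -0.38 log2 in both, with limma adjusted p-values of 0.392 and 0.555, and the single CtrlsiRNA array on slide 2 was assumed to vary like the others. Across 23 alternatives the Hmgb3 value ran from -0.38 to -0.23 log2 and its adjusted p from 0.0570 to 0.555. The number of features called moved much more, to 3976 without array 3 of CtrlsiRNA and to 536 without array 3 of CtrlsiRNA + LPS, against 1229 with all arrays. Without array 3 the CtrlsiRNA group was wholly on its own slide, so LPS and slide cannot be told apart there.

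In lincRNA-siRNA cells the intervals of all 3 genes included 0. Hmgb1 differed by 0.13 log2 with LPS (95% interval -0.34 to 0.60, limma adjusted p = 0.921), Hmgb2 by 0.09 (-0.16 to 0.34, adjusted p = 0.874) and Hmgb3 by -0.07 (-0.27 to 0.12, adjusted p = 0.877). None was called, against 1.85% of all features, and the arrays of all 3 genes overlapped between the groups, where 15.5% of features did not overlap. On the linear scale the 95% interval of the difference ran from -21.1% to 51.9% for Hmgb1 and from -17.0% to 9.03% for Hmgb3.

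The second question was whether the siRNA against lincRNA-Tnfaip3 changed HMGB expression. Without LPS, Hmgb1 differed by -0.34 ± 0.21 log2 (SE; 95% interval -0.81 to 0.14, limma adjusted p = 0.396), Hmgb2 by -0.21 (-0.46 to 0.04, adjusted p = 0.324) and Hmgb3 by -0.14 (-0.34 to 0.05, adjusted p = 0.381). None of the 3 was called in limma, and neither was any other feature (0%), although 4430 features, 18.5%, had an unadjusted p under 0.05. All 3 estimates were below 0, beside a median of 0.07 over all features. Hmgb3 was lower on every array of LincTnfaip3siRNA than on any of CtrlsiRNA, as were 9.22% of features (21.4% in either direction).

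The Hmgb1 estimate moved with single arrays of LincTnfaip3siRNA. Without array 1 of LincTnfaip3siRNA it became -0.10 log2, without array 3 of that group -0.56, and with the slide as a block -0.22. It was -0.09 with normexp background correction and -0.14 as the mean of all Hmgb1 probes. The brightest Hmgb1 probe may be a different one under normexp, so the effect of background correction on the same probe was not tested. Hmgb2 in the same comparison was -0.40 with quantile normalization or the authors' value matrix, -0.11 with the slide as a block and -0.14 without array 1 of LincTnfaip3siRNA. None of these alternatives called either gene. The number of features called was 133 without array 1 of LincTnfaip3siRNA and 2610 without array 3 of CtrlsiRNA, and no HMGB gene was among them in either case. Without that CtrlsiRNA array the control group was wholly on its own slide, so siRNA and slide cannot be told apart there.

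With LPS present, the siRNA left smaller differences. Hmgb1 differed by -0.08 log2 (95% interval -0.55 to 0.39, limma adjusted p = 0.996), Hmgb2 by -0.01 (-0.26 to 0.23, adjusted p = 0.998) and Hmgb3 by 0.09 (-0.10 to 0.29, adjusted p = 0.976). None was called, nor was any feature (0%) in limma, with 1106 features, 4.63%, at an unadjusted p under 0.05. The arrays of all 3 genes overlapped, where 11.4% of features did not. On the linear scale the 95% interval of the difference ran from -31.9% to 31.2% for Hmgb1, from -16.5% to 17.6% for Hmgb2 and from -6.84% to 22.3% for Hmgb3.

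The interaction asks whether the response to LPS differed between the siRNAs. It was 0.26 log2 for Hmgb1 (95% interval -0.41 to 0.92), 0.20 for Hmgb2 (-0.15 to 0.55) and 0.24 for Hmgb3 (-0.04 to 0.52), with limma adjusted p-values of 0.903, 0.890 and 0.890. No feature was called (0%), and 893, 3.74%, had an unadjusted p under 0.05 in limma. The 3 estimates share sign, but they come from the same 12 arrays, and their intervals include 0. With the slide as a block the value was 0.05 for Hmgb1, -0.02 for Hmgb2 and 0.33 for Hmgb3. Hmgb1's was 0.015 without array 1 of LincTnfaip3siRNA, 0.48 without array 3 of that group and 0.13 without array 2 of LincTnfaip3siRNA + LPS. Hmgb2's was 0.07 with normexp background correction, and 0.12 and 0.13 without the first and last of those 3 arrays.

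**Figure D2:**
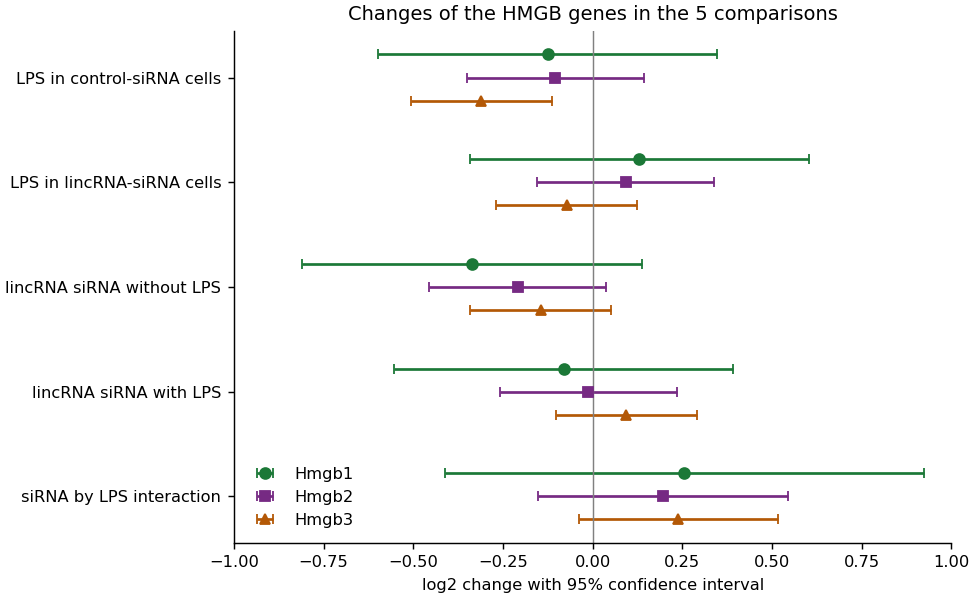
Log2 change (point) with its 95% confidence interval (line) for Hmgb1, Hmgb2 and Hmgb3 in each of the 5 comparisons of 3 arrays per group, from the model over all 12 arrays. Hmgb3 with LPS in control-siRNA cells, -0.51 to -0.11 log2, is the interval that leaves out 0.

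The plot of changes shows that Hmgb1 had the widest intervals of the 3 genes in every comparison. The intervals drawn are not adjusted for the number of features, so the one of Hmgb3 that leaves out 0 belongs to the adjusted p of 0.0759 given above (limma).

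The 7 probes named Hmgb1 gave further readings under the same gene name, and their values differed in sign. With LPS in lincRNA-siRNA cells they ran from -0.02 to 0.18 log2 with 3 below 0, and in control-siRNA cells from -0.35 to 0.16 with 5 below 0. For the siRNA, they ran from -0.11 to 0.29 with LPS, 2 of them below 0, and from -0.34 to 0.14 without LPS, 6 of them below 0. Probes 1059, 1432 and 2115 list RefSeq transcripts of Hmgb1 only. For the siRNA these stood at 0.12, 0.16 and 0.12 log2 with LPS and at -0.13, 0.14 and -0.11 without. No probe was called in any comparison when all 33129 kept probes were fitted, and none had an unadjusted p under 0.05 in limma. The lowest adjusted p among them was 0.226, with LPS in control-siRNA cells.

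The probes also differed in which arrays were high or low. Probe 471 read 3.98, 4.62 and 4.80 in LincTnfaip3siRNA, with the same low first array as probe 633, whereas probe 754 read 4.79, 5.05 and 5.09 there. For probe 754 the low array was the third of CtrlsiRNA + LPS, at 4.32, against 4.88 and 4.83 on the first and second. Over the 12 arrays, which share slide and group, Pearson's r was 0.70 between probes 471 and 633 and 0.88 between the overlapping probes 1059 and 1062, and the other 19 pairs ran from -0.30 to 0.56.

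The probes with a close relative elsewhere on the array lay mostly below those without for the siRNA. With LPS the 3 probes without a relative lay between 0.12 and 0.29 log2 and the 4 with one between -0.11 and 0.12. Without LPS the 3 lay between -0.11 and 0.14 and the 4 between -0.34 and -0.13. The 0.14 came from probe 1432, the dimmest Hmgb1 probe, with a processed signal of 389 to 627. This difference between probe classes was not tested. The 17 relatives themselves gave 0 calls in each of the 5 comparisons in limma, with medians of -0.08 for the siRNA with LPS and -0.28 without.

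**Figure D3:**
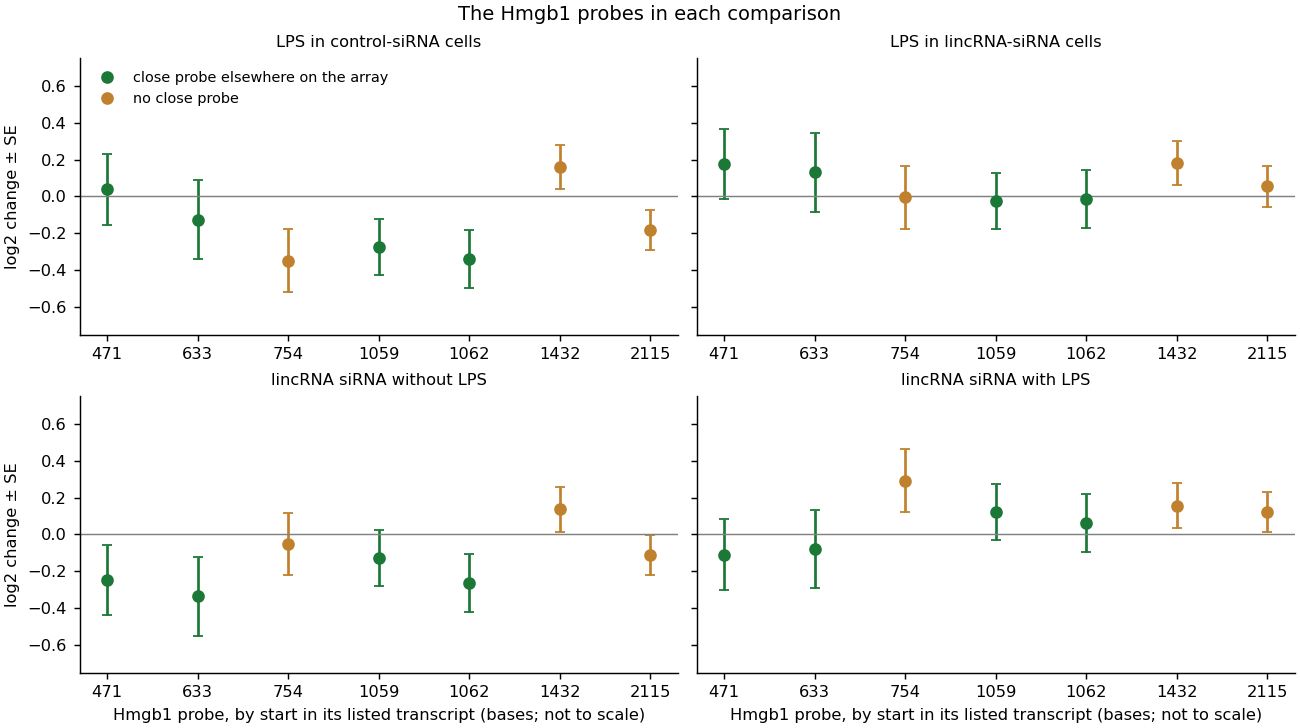
Log2 change with its standard error for each of the 7 Hmgb1 probes in 4 comparisons of 3 arrays per group. Probes are ordered by the base at which each starts in its listed transcript. Green probes have a close match elsewhere on the array and brown ones have none. For the siRNA with LPS, probes 471 and 633 lie below 0 and the other 5 above it.

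The plot of the 7 probes makes the disagreement visible: the brightest probe, 633, has a value below 0 for the siRNA with LPS, while probe 754 stands at 0.29 ± 0.17 log2 (SE) in the same comparison. Neither passed the threshold, and no RefSeq transcript is listed for probe 754.

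The features most like each HMGB gene over the 12 arrays were ranked by Pearson's r among 14883 features with a gene symbol, as a description of arrays that share slides and groups. For Hmgb1, as read by probe 633, they were Gm5176 (r = 0.96), Gm5396 (0.95), Hapln3 (0.92), P2rx3 (0.91) and Get1 (0.91). The first and second are pseudogenes in the RefSeq table. The probe named Gm5396 is the one shown above beside probe 471. The probe named Gm5176, at chr10:110938208-110938267, had no close match to an Hmgb1 probe, its best being 15 of 35 bases, although the gene itself is on the accession list of probe 633.

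Gm5176 read 3.43, 3.72 and 3.46 in LincTnfaip3siRNA + LPS, 2.88, 3.48 and 3.66 in LincTnfaip3siRNA, 3.54, 3.57 and 3.73 in CtrlsiRNA + LPS and 3.66, 3.94 and 3.67 in CtrlsiRNA. Gm5396 read 4.66, 5.12 and 4.85, then 4.06, 4.76 and 5.12, then 4.96, 5.07 and 5.07, and 5.13, 5.21 and 4.99 in the same groups in that order. Both were lowest on the first array of LincTnfaip3siRNA, the array on which Hmgb1's probe 633 was lowest.

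**Figure D4:**
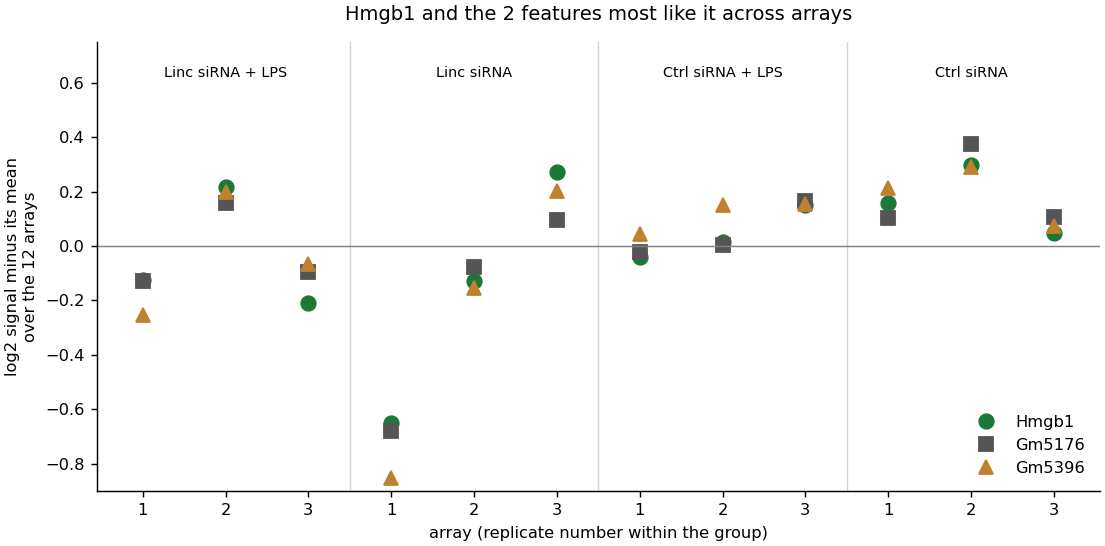
Log2 signal of Hmgb1 (probe 633), Gm5176 and Gm5396 on each of the 12 arrays, each minus its own mean over the 12 arrays. All 3 have their lowest value on the first array of LincTnfaip3siRNA.

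The plot of Hmgb1's probe 633 with these features shows points that nearly coincide on most arrays. Probe 633 was less like the other Hmgb1 probes. Pearson's r with it was 0.70 for probe 471, 0.13 for 754, 0.03 for 1059, 0.30 for 1062, 0.23 for 1432 and 0.53 for 2115. The likeness is therefore given for probe 633 and not for Hmgb1 as a gene. For Hmgb2 the features most like it were Gnb5 (r = 0.94), P2rx3 (0.93), Nox4 (0.92), Dlk2 (0.90) and Cst8 (0.89), so P2rx3 was on the lists of both Hmgb1 and Hmgb2. Nox4 and Cst8 were dim, at -6.60 to -3.25 and -6.40 to -2.98 log2, going as low as Ager's lowest level, -6.09. Over the arrays they spanned 3.35 and 3.42 log2, against 0.42 for Hmgb2. For Hmgb3 they included Acvr1 (0.94), Wdr5b (0.91), Slc8b1 (0.90) and Kdsr (0.89). With LPS in control-siRNA cells, Wdr5b fell by 0.74 log2, Slc8b1 fell by 0.71 and Kdsr fell by 0.57 (limma adjusted p = 0.00997, 0.0262 and 0.0117). Acvr1, an activin receptor gene, stood at -0.23 log2 there and was not called (adjusted p = 0.151).

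Some listed partners of HMGB1 passed the test with LPS. Of 16 listed cell-surface receptors and partners, 9 were tested, and 1 fell with LPS in lincRNA-siRNA cells and 2 in control-siRNA cells, beside 0.347% and 1.89% of all features. Tlr4, the LPS receptor through which HMGB1 also signals, fell with LPS by 0.64 log2 in lincRNA-siRNA cells (limma adjusted p = 0.0263) and by 0.68 log2 in control-siRNA cells (adjusted p = 0.0111). Its arrays read 0.61, 0.52 and 0.30 in LincTnfaip3siRNA + LPS against 1.10, 1.16 and 1.10 in LincTnfaip3siRNA, and 0.33, 0.67 and 0.39 in CtrlsiRNA + LPS against 1.26, 1.12 and 1.05 in CtrlsiRNA. With the slide as a block Tlr4 stood at -0.51 and -0.58 log2 in these comparisons and passed in neither (limma adjusted p = 0.485 and 0.269).

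Trem1, an amplifying receptor of myeloid cells, fell by 0.92 log2 with LPS in control-siRNA cells (limma adjusted p = 0.0114). With the slide as a block it stood at -0.76 log2 (adjusted p = 0.319). It read 1.21, 0.68 and 0.86 in CtrlsiRNA + LPS against 2.02, 1.82 and 1.68 in CtrlsiRNA, with no overlap. The 9 genes had medians of -0.25 log2 with LPS in lincRNA-siRNA cells and 0.02 in control-siRNA cells, beside -0.01 and 0.06 over all features. Of the other RAGE ligands and signalling genes 11 of 12 were tested. None passed in any of the 5 comparisons, beside 1.85% and 5.14% of all features called with LPS in lincRNA-siRNA and control-siRNA cells and 0% in the other 3, so 0 of 11 is near the background. S100a9 and S100a8, which encode the subunits of calprotectin, stood at 1.26 and 1.11 log2 with LPS in control-siRNA cells (adjusted p = 0.0946 and 0.314).

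Of 17 genes linked to modification and release of HMGB1, all 17 were tested, and 3 rose with LPS under each siRNA, beside 1.51% of all features in lincRNA-siRNA cells and 3.26% in control-siRNA cells. Nlrp3, the sensor of an inflammasome, rose by 1.77 log2 in lincRNA-siRNA cells and by 1.85 log2 in control-siRNA cells (limma adjusted p = 0.000166 and 9.54e-05). It read 0.62, 0.95 and 1.20 in LincTnfaip3siRNA + LPS against -0.77, -0.87 and -0.91 in LincTnfaip3siRNA, and 0.90, 0.97 and 1.05 in CtrlsiRNA + LPS against -0.93, -0.92 and -0.76 in CtrlsiRNA. The groups with LPS lay wholly above those without.

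Casp4, the caspase that senses intracellular LPS, rose by 0.88 log2 in lincRNA-siRNA cells and by 1.28 log2 in control-siRNA cells (limma adjusted p = 0.00808 and 0.000496). Eif2ak2, which encodes the kinase PKR, rose by 1.10 log2 in lincRNA-siRNA cells and by 1.88 log2 in control-siRNA cells (adjusted p = 0.0381 and 0.00107). With the slide as a block, Casp4 and Eif2ak2 passed in control-siRNA cells and not in lincRNA-siRNA cells (adjusted p = 0.0645 and 0.247), where their changes were 1.03 and 1.29 log2, no smaller than without the block. Nlrp3 passed in both. The list's medians were 0.01 and 0.09 log2 with LPS in lincRNA-siRNA and control-siRNA cells.

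The SET complex is a DNA repair and chaperone complex to which HMGB2 belongs. Of its 6 other listed genes, all tested, Trex1 rose with LPS under each siRNA, 1 of 6 beside 1.51% of all features in lincRNA-siRNA cells and 3.26% in control-siRNA cells, and the other 5 were not called. Trex1, a DNA exonuclease gene that interferon is known to induce, rose by 1.95 log2 in lincRNA-siRNA cells and by 2.26 log2 in control-siRNA cells (limma adjusted p = 5.47e-05 and 1.54e-05). It read 6.78, 6.77 and 6.54 in LincTnfaip3siRNA + LPS against 4.67, 4.72 and 4.87 in LincTnfaip3siRNA, and 7.00, 6.67 and 6.77 in CtrlsiRNA + LPS against 4.40, 4.59 and 4.67 in CtrlsiRNA. It passed with the slide as a block in both.

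Among other genes with an HMG domain or HMG name, 18 of 24 were tested. None passed in any of the 5 comparisons, which at the same shares of all features is again near the background. Of the proliferation genes, listed because Hmgb2 is linked to dividing cells, 22 of 23 were tested. In control-siRNA cells 3 of the 22 fell with LPS, beside 1.89% of all features. Aurkb fell by 1.22 log2, Ccnb2 fell by 0.43 and Aurka fell by 0.39 (limma adjusted p = 0.0395, 0.0412 and 0.0496). These encode mitotic kinases and a mitotic cyclin, and none of the 3 passed with the slide as a block, where Aurkb stood at -0.60 log2, Ccnb2 at -0.35 and Aurka at -0.36 (adjusted p = 0.386, 0.574 and 0.543). In lincRNA-siRNA cells none passed. The medians of the 22 were -0.10 log2 with LPS in lincRNA-siRNA cells and -0.15 in control-siRNA cells, and 17 and 20 of the 22 were below 0, beside 51.7% and 44.1% of all features. The siRNA comparisons and the interaction called no gene of these 6 lists, and 0% of all features.

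**Figure D5:**
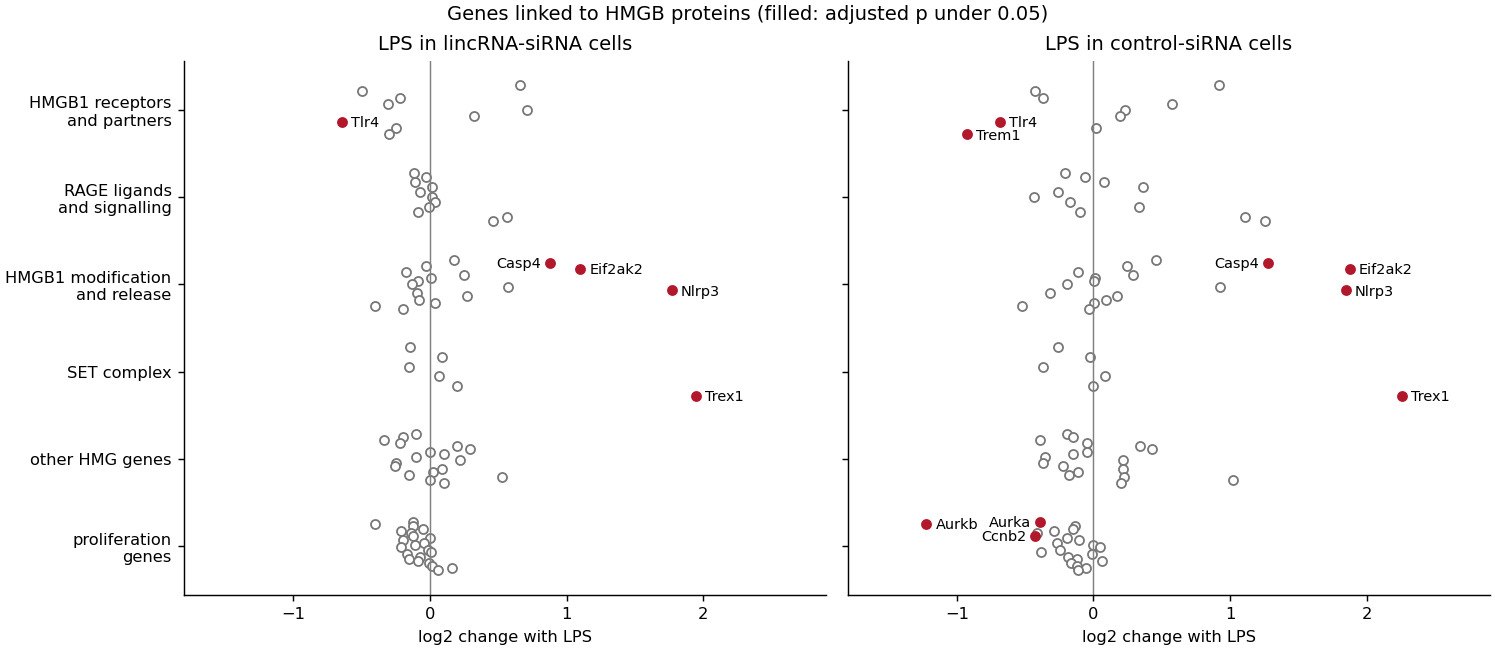
Log2 change with LPS of each tested gene of the 6 lists, in lincRNA-siRNA cells (left) and control-siRNA cells (right); filled and named points passed an adjusted p of 0.05, and points are spread vertically within a list for legibility. Trex1, Nlrp3, Eif2ak2, Casp4 and Tlr4 are filled in both panels.

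In the plot of the lists most genes lie near 0 with LPS under either siRNA, and the filled points are few in each list.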

How the data were processed

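RNA from 12 samples was hybridised to 1-colour Agilent arrays. Spot intensity was deposited as output of Agilent Feature Extraction 10.7.1.1, per the file headers, with background subtraction within the array and no normalization between arrays; probe positions refer to mm9. The authors' deposited value matrix, read as log2 because its columns follow the arrays' log2 signals, has an unstated normalization and an equal median, 4.75, in every column, and served only as an alternative.

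Outlier spots were left out, spots of a probe averaged, and log2 of the processed intensity taken minus the array's 75th percentile. Probes well above background on all 3 arrays of a group were kept (33129), and a gene was represented by its brightest kept probe (23888 features). Symbols were updated through accessions of 26582 probes matched to RefSeq names of GRCm38.p6. The linear model in limma 3.58.1 (R 4.3.3) gave each group a mean, over the 12 arrays together (8 residual degrees of freedom), with Benjamini-Hochberg adjustment over all features. The fit was tested on simulated data. No probe among the members was missing or saturated on any array.

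Alternatives were normexp background (offset 50), quantile normalization, the value matrix, other filters, other probe rules, slide and replicate blocks, slide 2 alone, the compared groups alone, and each array left out. Named genes were the members, genes of the 6 lists that passed (up to 4 per list and comparison), and the 5 features most correlated with each member, of which 1 is not reported here; other genes were named after their values were seen. Members and lists were chosen with earlier results of these data known. Files were read with version 1.17.8 of data.table, and figures drawn with Python 3.11.15 and matplotlib 3.10.9.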

Additional observations from a re-analysis of the deposited data

How the results depend on the processing

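No HMGB gene passed the threshold in any of the 342 combinations of gene, comparison and alternative, and 330 of these kept the direction. With normexp background the sign changed for Hmgb2 with LPS in control-siRNA cells (0.029 log2), Hmgb1 with LPS in lincRNA-siRNA cells (-0.044), and Hmgb1 and Hmgb3 for the siRNA with LPS (0.15 and -0.0048). For Hmgb1 these normexp values may come from a different probe than the main ones, because the brightest probe can change with the background correction. With the mean of all probes Hmgb1 for the siRNA with LPS was 0.081. With the slide as a block, and on slide 2 alone, Hmgb2 with LPS in lincRNA-siRNA cells was -0.027 and its interaction -0.020. Leaving out each array in turn gave -0.11 to 0.35 for Hmgb1 with LPS in lincRNA-siRNA cells, -0.21 to 0.0042 for Hmgb1 and -0.075 to 0.047 for Hmgb2 for the siRNA with LPS. The cause was not tested.

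Counts of features called moved more. With LPS in control-siRNA cells, 1229 became 717 with no filter, 231 with the slide as a block, 42 on slide 2 alone, 631 with the compared groups alone and 536 to 3976 with an array left out. With LPS in lincRNA-siRNA cells, 443 became 158, 45 and 136 under the slide block, slide 2 alone and the compared groups alone, and 246 to 470 with an array left out. The siRNA without LPS gave 3, 2 and 1 calls with normexp, the mean of all probes and the slide block, and 0 to 2610 with an array left out. The siRNA with LPS gave 2 with the slide block, and the interaction 0 to 356 with an array left out. The counts 3976, 2610 and 356 came without array 3 of CtrlsiRNA. That left CtrlsiRNA wholly on its own slide, so these counts cannot be told apart from a slide difference. After group means were removed, arrays of compared groups with the same replicate number correlated at -0.30 to 0.34. These values do not settle whether replicate numbers pair the arrays. The replicate block gave 1575 and 387 calls for LPS in control-siRNA and lincRNA-siRNA cells, and 0 for the rest, and called no HMGB gene. Fewer arrays also mean fewer residual degrees of freedom, and Ager's signal near background limits what can be said of it.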
